A study of Mus musculus with 6 samples.

Results

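The genes described here were 10 members of the fibroblast growth factor (FGF) system of the growth plate, read in rib cage RNA of 16.5 dpc mouse embryos. They were the 5 receptor genes Fgfr1, Fgfr2, Fgfr3, Fgfr4 and Fgfrl1 and the 5 ligand genes Fgf2, Fgf7, Fgf9, Fgf10 and Fgf18, chosen by name and matched by symbol to 10 of the 55487 gene IDs in the count table. RNA-Seq libraries came from 3 control embryos (E420, E434 and E435), labelled wild type, and 3 mutant embryos (E423, E433 and E440), labelled Col2-cre;Foxc1-/-;Foxc2-/-. The study asked what loss of the forkhead transcription factors Foxc1 and Foxc2 in cartilage progenitors does to gene expression in the rib cage. In the mutants a Cre recombinase under type II collagen control removes floxed Foxc1 and Foxc2, so deletion is limited to cells with a history of Col2-cre activity, which can include perichondrial and bone-forming cells, while cells without that history, such as muscle, can keep both genes. The methods of the study describe a mixed C57B6 and Black Swiss background and a cross of Col2-cre+/-;Foxc1+/Δ;Foxc2+/Δ males to females with both floxed genes homozygous (Foxc1 fl/fl;Foxc2 fl/fl). Embryos of that cross inherit at least 1 floxed copy of each gene. The labels give no further genotype for the controls and no litter for any embryo. The methods describe controls and mutants as littermates, but not which of these embryos shared a litter.

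FGFs are secreted proteins that bind receptor tyrosine kinases together with heparan sulfate, and the activated receptors signal through the adaptor Frs2 to the MAPK cascade, and through PLC-gamma. In the growth plate, FGFR3 in proliferating chondrocytes restrains chondrocyte proliferation, and activating FGFR3 mutations cause achondroplasia. FGFR1 is known from hypertrophic chondrocytes and osteoblasts, FGFR2 from the perichondrium and osteoprogenitors, and FGF9 and FGF18 are ligands that act on chondrocytes and osteoblasts.

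All 10 genes were detected in all 6 libraries, with 170 to 13186 reads per gene and library out of 37853988 to 47794799 assigned reads. A change was called where the adjusted p-value was under 0.1 and the difference reached 1 on the log2 scale, up or down. None of the 10 was called, and edgeR called 17 of all 26596 tested genes (0.0639%). Foxc1 and Foxc2, the targeted genes, were not called either. In counts scaled to library size, the 3 mutant libraries lay apart from the 3 control libraries in 5 of the 10 genes, against 15% of all genes. Fgf7, Fgf9, Fgf18 and Fgfr2 were lower in every mutant than in any control, and Fgf10 was higher. In the authors' TPM values (transcript abundance scaled for length), the groups of Fgf7 and Fgf9 overlapped through E433. Fgfr3, the receptor most closely tied to chondrocytes, had a control mean set mainly by 1 library, E434, whose cartilage marker level was far above that of the other controls.

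The libraries did not vary evenly within the groups. Levels are given as CPM, read counts scaled to library size with TMM factors, unless a level per length is named. Values of controls are given in the order E420, E434, E435 and those of mutants in the order E423, E433, E440. The summed CPM of 15 chondrocyte marker genes was 2191, 28669.8 and 2087 in the controls but 753, 10680.3 and 727 in the mutants. Col2a1, the type II collagen gene of cartilage, alone ran from 162 to 14427 CPM, so a cartilage transcript was present in every library, but chondrocyte marker RNA varied more than 10-fold within each group. E434 also had the lowest summed level of 10 keratinocyte markers, 18.9 CPM against 5509 and 6377 in the other controls, and the mutants had 27537, 3241 and 27681 CPM. E433 had 635 CPM of 8 hepatocyte markers where the other 5 libraries had 30.5 to 50.5 CPM. The targeted genes were lower in every mutant than in any control, with Foxc1 at 23.1, 36.9 and 24.2 CPM in controls against 3.56, 9.61 and 3.51 CPM in mutants and Foxc2 at 1.99, 4.83 and 3.22 CPM against 0.649, 1.14 and 0.737 CPM. Their edgeR log2 fold changes were -2.34 and -1.99, with adjusted p-values of 0.235 and 0.239, so the test called neither of the deleted genes. Because E434 and E433 stand apart, each main result is given with and without them. In tissue RNA, fewer cells of a type and less RNA per cell cannot be told apart.

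The counts join all splice forms of a gene, which matters most for the receptors. FGFR1, FGFR2 and FGFR3 are each made in IIIb and IIIc forms, which use 1 of 2 alternative exons for the last part of the third immunoglobulin-like loop and thereby bind different ligands. Epithelial cells are known for the IIIb form of FGFR2, which binds FGF7 and FGF10, and mesenchymal cells for the IIIc form. The exon pair of Fgfr3 is shown because a gene-level count cannot tell such forms apart in RNA that holds both keratinocyte and skeletal transcripts. Both exons were read from GENCODE transcripts on GRCm38, 5′ to 3′ on the coding strand, with capitals marking bases that are identical within the pair after alignment. The exons lie on the plus strand at chr5:33731281-33731431 (IIIb) and chr5:33732117-33732261 (IIIc).
Fgfr3 IIIb: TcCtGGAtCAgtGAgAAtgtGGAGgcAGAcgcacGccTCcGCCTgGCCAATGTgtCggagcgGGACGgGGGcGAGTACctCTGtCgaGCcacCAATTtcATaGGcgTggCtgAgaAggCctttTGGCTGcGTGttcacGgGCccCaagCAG
Fgfr3 IIIc: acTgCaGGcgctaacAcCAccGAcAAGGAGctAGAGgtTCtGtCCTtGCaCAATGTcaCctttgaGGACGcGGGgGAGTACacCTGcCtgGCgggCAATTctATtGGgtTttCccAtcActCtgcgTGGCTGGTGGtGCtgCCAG
The exons of 151 and 145 bases shared 51.9% of aligned positions.

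Levels of different genes were compared per kb of exon, since longer transcripts give more reads. Over the 6 libraries Fgfrl1, which encodes a receptor without a tyrosine kinase domain, had the highest mean level per kb at 60.2 CPM, followed by Fgfr1 at 23.2, Fgfr4 at 14.5, Fgf18 at 12.5, Fgfr3 at 10.004, Fgfr2 at 9.72, Fgf7 at 6.01, Fgf2 at 2.998, Fgf10 at 1.999 and Fgf9 at 1.19 CPM per kb. On this scale the ranges over libraries did not overlap between Fgfrl1 and Fgfr1, between Fgfr2 and Fgf7, or between Fgf7 and Fgf2. The ranges of Fgfr1 and Fgfr4 were barely apart, with Fgfr1 at 18.23 CPM per kb in its lowest library (E440) and Fgfr4 at 18.18 in its highest (E434). Within each library Fgfr1 was well above Fgfr4, which was at 11.4 in E440, while Fgfr1 was at 29.5 in E434. The ranges of Fgfr4, Fgf18, Fgfr3 and Fgfr2 overlapped from each to the next, as did those of Fgf2, Fgf10 and Fgf9. Within each library, however, Fgf2 was above both Fgf10 and Fgf9, and Fgfr4 was above Fgfr2. The order of the other genes with overlapping ranges differed between libraries. Fgfr3, from 6.63 to 21.6 CPM per kb, also overlapped the ranges of Fgfr1 and Fgf7, although it was below Fgfr1 within each library. On the authors' TPM scale (transcript abundance scaled for length), which uses isoform lengths, Fgfr2 was in place 3 and Fgf18 in place 6. On that scale the ranges of Fgfrl1 (76.5 to 149.8 TPM) and Fgfr1 (61.3 to 110.3 TPM) overlapped, and Fgfr1 was above Fgfrl1 in E420 and E435.

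**Figure D1:**
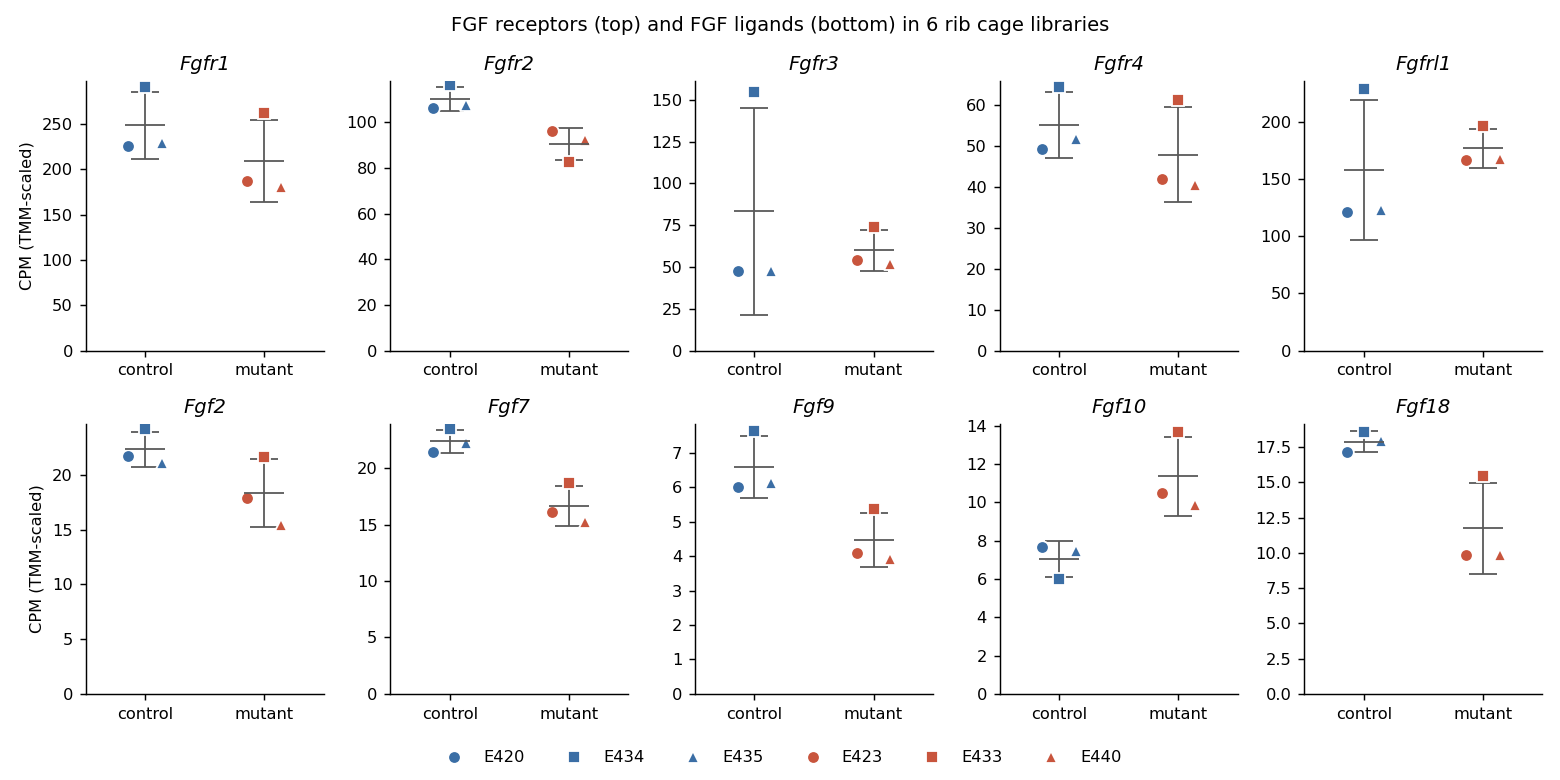
TMM-scaled CPM (vertical axes, each from 0) of the 5 receptors (top) and 5 ligands (bottom) in 3 control (blue) and 3 mutant (red) libraries, with bars for the group mean ± SD and squares for E434 and E433. Fgfr3 and Fgfrl1 were highest in E434, at 155 and 229 CPM, while Fgf7, Fgf9, Fgf18 and Fgfr2 were lower, and Fgf10 higher, in all mutants than in all controls.

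Fgf18 (chr11:33117430-33147400, minus strand of GRCm38) is made by the perichondrium and by osteoprogenitors and signals to chondrocytes and osteoblasts. It had 17.1, 18.6 and 17.9 CPM in controls and 9.89, 15.5 and 9.88 CPM in mutants. The groups did not overlap, but E433 lay closer to the controls than to the other mutants. In TPM the groups were barely apart, with E433 at 23.04 and E420 at 23.13. The mean was 17.9 ± 0.736 CPM in controls and 11.7 ± 3.21 CPM in mutants (SD, n = 3), a ratio of 0.656. The log2 fold change was -0.61 (SE 0.19, 95% interval -1.08 to -0.14), with an adjusted p-value of 0.407 in edgeR and 0.09997 in DESeq2.

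E420 and E435 lay close together in Fgf18, as did E423 and E440, but the difference between mutants and controls varied with the libraries compared. E423 and E440 differed by -0.83 from E420 and E435 on the log2 scale, and E433 by -0.27 from E434. The summed CPM of 12 osteoblast and osteocyte markers was 11551 to 16677 in controls and 8009 to 8401 in mutants. Of the 12 genes, 11 were lower in every mutant than in any control (8.21% of all genes) and none was undetected. Most of that sum was Col1a1, at 9798 to 14932 CPM in controls and 7152 to 7787 CPM in mutants. Ibsp, the next highest, had 923, 887 and 967 CPM in controls and 619, 247 and 605 CPM in mutants. Among the mutants, E433 was highest in Fgf18, Col1a1 and Runx2 (chosen after its values were seen) and lowest in the other listed markers. The part of the osteoblast marker difference in the Fgf18 result was not tested. Of 11809 protein-coding genes with at least 5 CPM, those with log2 profiles closest to Fgf18 over the 6 libraries were Cdh11, Mdfi and Dpy19l1, at root-mean-square distances of 0.044 to 0.061. Cdh11, a cadherin of mesenchymal and osteoblastic cells, had 237, 263 and 230 CPM in controls and 134, 212 and 136 CPM in mutants.

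Fgf9 (chr14:58070547-58112720, plus strand) is a further ligand for the IIIc forms and for FGFR3. Its levels were 6.01, 7.63 and 6.12 CPM in controls and 4.09, 5.36 and 3.92 CPM in mutants. In CPM every mutant lay below every control, although in TPM E433 (3.56) lay above E420 (3.48). In each group the cartilage-rich library (E434 or E433) was the highest. On the log2 scale the difference was -0.56 (SE 0.18, 95% interval -0.999 to -0.13), with an adjusted p-value of 0.408 in edgeR and 0.147 in DESeq2. The difference was alike in both comparisons, with -0.60 on the log2 scale for E423 and E440 against E420 and E435 and -0.51 for E433 against E434.

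Fgf7 (chr2:126034658-126091185, plus strand) and Fgf10 (chr13:118669791-118792115, plus strand) form a subfamily of mesenchymal ligands that act on the IIIb form of FGFR2, and they lay on opposite sides of the controls. Fgf7 had 21.5, 23.5 and 22.2 CPM in controls and 16.1, 18.7 and 15.3 CPM in mutants, a ratio of means of 0.745 and a log2 fold change of -0.42 (SE 0.11, 95% interval -0.69 to -0.16). The adjusted p-value of Fgf7 was 0.361 in edgeR and 0.0548 in DESeq2, and E423 and E440 differed by -0.48 from E420 and E435 on the log2 scale, and E433 by -0.33 from E434. Fgf10 had 7.69, 5.98 and 7.46 CPM in controls and 10.5, 13.7 and 9.88 CPM in mutants, a ratio of means of 1.61 and a log2 fold change of 0.69 (SE 0.18, 95% interval 0.27 to 1.11). The adjusted p-value of Fgf10 was 0.358 in edgeR and 0.0191 in DESeq2. In CPM, Fgf7 was lower and Fgf10 higher in every mutant than in any control. In TPM the Fgf7 groups overlapped, with E433 at 13.14 and E420 at 13.02. The Fgf10 difference was 0.43 on the log2 scale for E423 and E440 against E420 and E435, and 1.195 for E433 against E434, with E434 the lowest and E433 the highest of all libraries.

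The mix of the 5 ligands was described by the share of each in their summed level per kb, with no test. Fgf10 made up 6.14%, 4.42% and 5.79% of that sum in controls and 11.9%, 11.4% and 11.7% in mutants. The Fgf10 share in every mutant was thus above that in every control, including E433. Fgf18 remained the largest part in each library but was lower in the mutants, at 43.6% to 49.9% against 53.0% to 54.0%. Fgf2 was slightly above and Fgf9 slightly below in every mutant. Their mean shares were 11.7% and 5.01% in controls and 12.8% and 4.55% in mutants, while Fgf7 overlapped at 24.4% and 24.6%. With TPM in place of the level per kb, the Fgf9 shares overlapped as well. The shares are bound together, so a lower level of 1 ligand lifts the shares of the others. The summed level of 6 adipocyte markers was 248, 313 and 251 CPM in controls and 817, 363 and 832 CPM in mutants. Of the 6, 4 were higher in every mutant than in any control (6.81% of all genes). Each was detected in at least 1 library, but Cfd had no read in E420, E434 or E433. E433, the mutant with the lowest sum, had the highest Fgf10 level. The part of the adipocyte markers in the Fgf10 result was not tested.

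**Figure D2:**
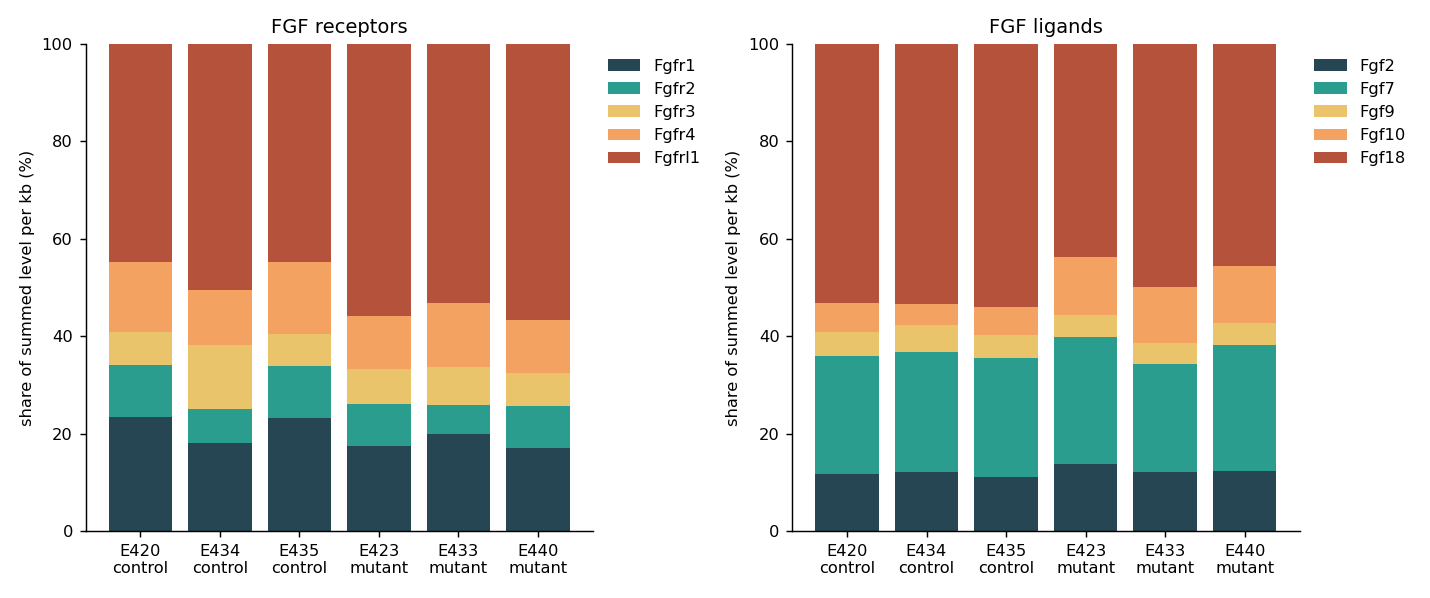
Share in percent of the summed level per kb held by each receptor (left) and ligand (right) in each of the 6 libraries. The Fgf10 share was 4.42% to 6.14% in controls and 11.4% to 11.9% in mutants, while Fgfrl1 was 44.7% to 50.6% of the receptor sum in controls and 53.2% to 56.7% in mutants.

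The region before the Fgf10 start site is shown because Foxc1 and Foxc2, deleted in part of the mutant cells, encode forkhead factors. The region was chosen with the values known, since Fgf10 was the only member that was higher in every mutant than in any control. Whether either factor acts at this region was not tested. The 250 bases upstream of the RefSeq start lie at chr13:118714449-118714698 on the plus strand of GRCm38.p6, inside the gene model of the count table, which also holds forms that start further upstream. Capitals mark a match, in reverse complement, to the forkhead core GTAAACA.
Fgf10 upstream: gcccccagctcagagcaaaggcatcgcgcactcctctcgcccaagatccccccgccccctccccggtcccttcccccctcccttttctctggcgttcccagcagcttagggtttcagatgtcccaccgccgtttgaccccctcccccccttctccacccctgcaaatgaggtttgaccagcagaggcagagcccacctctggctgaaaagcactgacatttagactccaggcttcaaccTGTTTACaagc
The match spans bases 11 to 5 before the start. Both strands were searched, and 3.17% of 32851 RefSeq windows of the same length hold the motif. Of the members, 9 have windows in the RefSeq table, 10 windows in all, and 1 of the 10 windows, that of Fgf10, holds it. A match of letters is a description and not a bound site.

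Fgf2 (chr3:37348346-37410108, plus strand), a broadly made ligand stored in matrix, was the ligand whose groups overlapped in CPM. It had 21.7, 24.2 and 21.1 CPM in controls and 17.9, 21.6 and 15.5 CPM in mutants, with E433 within the control range. The log2 fold change was -0.28 (SE 0.14, 95% interval -0.63 to 0.06, edgeR adjusted p-value 0.535), with -0.36 for E423 and E440 against E420 and E435 and -0.16 for E433 against E434. Exons of Fgf2 share 640 of 6782 bases with the opposite-strand gene Nudt6 and 255 with Gm43439, and reads that overlap more than 1 gene were not assigned.

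Among the receptors, Fgfr3 (chr5:33721674-33737068, plus strand) had 47.8, 155 and 47.5 CPM in controls and 54.1, 74.0 and 51.7 CPM in mutants. E434 was at 3.25 times the mean of the other controls, and E433 at 1.40 times the mean of the other mutants. Those were the libraries with the highest chondrocyte marker levels, and all other libraries lay between 47.5 and 54.1 CPM. The group means were 83.3 ± 61.7 CPM and 60.0 ± 12.2 CPM (SD, n = 3), a difference smaller than the control SD.

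The sign of the Fgfr3 log2 fold change depended on these libraries. With all 6 libraries it was -0.47 (SE 0.48, 95% interval -1.63 to 0.69, edgeR adjusted p-value 0.757). It was 0.33 without E434 (adjusted p-value 0.549), 0.15 without E434 and E433 (adjusted p-value 0.0382), and 0.17 with the chondrocyte marker level as a covariate (adjusted p-value 0.835). The genes with the closest profiles were Bmp6, Slc35d1 and Cspg4, at root-mean-square distances of 0.14 to 0.17 on the log2 scale, and each was highest in E434 and next highest in E433. Fgfr3 shares 998 of its 7158 exon bases (13.9%) with the opposite-strand gene G630022F23Rik, to which 97 reads were assigned in all libraries together.

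**Figure D3:**
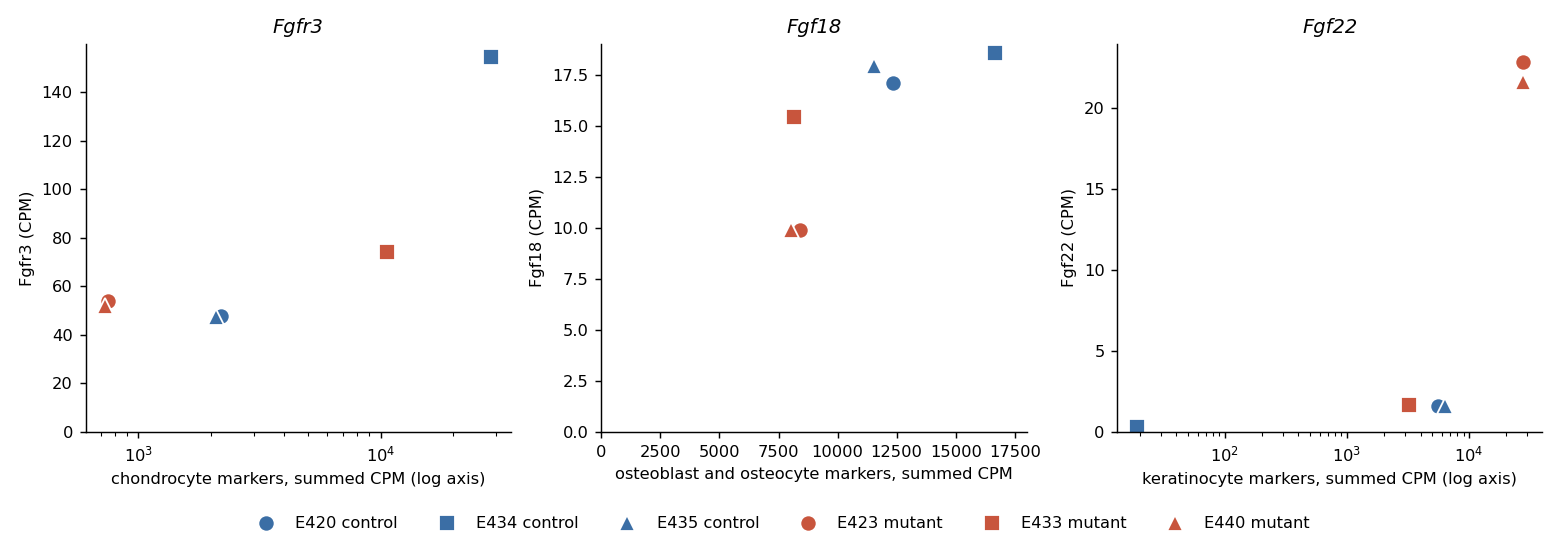
CPM of Fgfr3, Fgf18 and Fgf22 (vertical axes) against the summed CPM of chondrocyte, osteoblast and keratinocyte markers (horizontal axes, log scale except for osteoblast markers) in each library. Most of the osteoblast marker sum was Col1a1. Fgfr3 was highest in E434 (155 CPM) and E433 (74.0 CPM), the libraries with the most chondrocyte marker RNA, and Fgf22 reached 22.8 and 21.6 CPM in E423 and E440, those with the most keratinocyte marker RNA.

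Fgfrl1 (chr5:108692382-108706924, plus strand) followed a related pattern, with 121, 229 and 123 CPM in controls and 167, 196 and 167 CPM in mutants. The high control was again E434, so the groups overlapped although the mutants lay close together. Its log2 fold change was 0.16 over all libraries (SE 0.26, 95% interval -0.46 to 0.78, edgeR adjusted p-value 0.849). For E423 and E440 against E420 and E435 it was 0.45, and for E433 against E434 it was -0.22. Despite this, the share of Fgfrl1 in the summed receptor level per kb was 44.8%, 50.6% and 44.7% in controls and 55.8%, 53.2% and 56.7% in mutants, above every control in each mutant, a description with no test. Klhl3, Chrnd and Col20a1 had the closest profiles, at distances of 0.069 to 0.077.

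Fgfr2 (gene model of the count table at chr7:130162451-133123350, minus strand) was the receptor whose groups lay apart. It had 106, 116 and 108 CPM in controls and 96.3, 82.9 and 92.4 CPM in mutants, with E433 the lowest. Its log2 fold change was -0.28 (SE 0.085, 95% interval -0.49 to -0.08), with an adjusted p-value of 0.390 in edgeR and 0.183 in DESeq2. The difference was -0.18 for E423 and E440 against E420 and E435 and -0.49 for E433 against E434. Csf1r, the receptor for M-CSF on macrophages and osteoclast precursors, had the closest profile, at a distance of 0.024, with 62.4, 70.7 and 62.4 CPM in controls and 56.9, 50.2 and 54.5 CPM in mutants. Tpd52l1 and Slc35c1 came next, at 0.039 and 0.041. The Fgfr2 gene model reaches into Ctbp2 on the same strand, with 314 shared exon bases. Its span and the 10328 exon bases behind the level per kb are those of this model.

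Fgfr1 (chr8:25513654-25575718, plus strand) and Fgfr4 (chr13:55152640-55168759, plus strand) had nearly the same profile, at a distance of 0.030 over the 6 libraries, although FGFR1 is broadly expressed and FGFR4 is known from developing muscle, liver and lung. Fgfr1 had 226, 291 and 229 CPM in controls and 187, 262 and 180.0 CPM in mutants. Fgfr4 had 49.3, 64.4 and 51.6 CPM in controls and 41.8, 61.1 and 40.5 CPM in mutants. In both genes E434 and E433 were the highest libraries of their groups and the groups overlapped through E433. The log2 fold changes were -0.25 for Fgfr1 (95% interval -0.68 to 0.18, edgeR adjusted p-value 0.660) and -0.20 for Fgfr4 (95% interval -0.66 to 0.25, edgeR adjusted p-value 0.732). Without E434 and E433 they were -0.31 and -0.29. Tmco3 and Snx25 were the other genes closest to Fgfr1. The summed level of 9 skeletal muscle markers ran from 11218 to 19337 CPM in controls and from 14874 to 26838 CPM in mutants, with E434 the highest control and E433 the lowest mutant. The 9 did not move together. Myod1, Myog and Pax7, chosen after their values were seen, were highest in E433 among the mutants, and the other 6 were lowest there. Myog had 294, 319 and 302 CPM in controls and 242, 334 and 239 CPM in mutants. The part of muscle RNA in the Fgfr1 and Fgfr4 results was not tested.

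Counted over the 10 members, 8 log2 fold changes were below 0, against 48.8% of all tested genes. In edgeR, 5 had an unadjusted p-value under 0.05 (10.6% of all genes), 4 of them lower (4.7%) and 1 higher (5.9%). DESeq2 also gave 5. In CPM the groups lay apart in 5 of 10 members (15.8% of genes with a mean of at least 5 CPM), 4 lower (8.21% of all genes) and 1 higher (6.81%). In TPM those of Fgf7 and Fgf9 overlapped. The smallest p-value that an exact permutation test of 3 against 3 libraries can give is 0.1, so no single gene could pass 0.05 in such a test. By DESeq2, 3 members (Fgf7, Fgf10 and Fgf18) had an adjusted p-value under 0.1, as did 3.57% of all genes, and none of them reached a log2 fold change of 1, which with that adjusted p-value was met by 1.79% of genes. The median log2 fold change was -0.25 over the receptors, -0.42 over the ligands and 0.0081 over all genes.

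Without E434 and E433, all 10 members had an edgeR adjusted p-value under 0.1, but so did 37.6% of all genes in that fit. E420 and E435 were close to each other, as were E423 and E440, and the labels do not say whether those embryos were of 1 litter, so p-values then measure only the spread within those pairs. Leaving out E433 alone gave 5 members (Fgf2, Fgf7, Fgf9, Fgf10 and Fgf18) with an adjusted p-value under 0.1, against 13.4% of all genes. Under every alternative run, no member passed both limits.

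**Figure D4:**
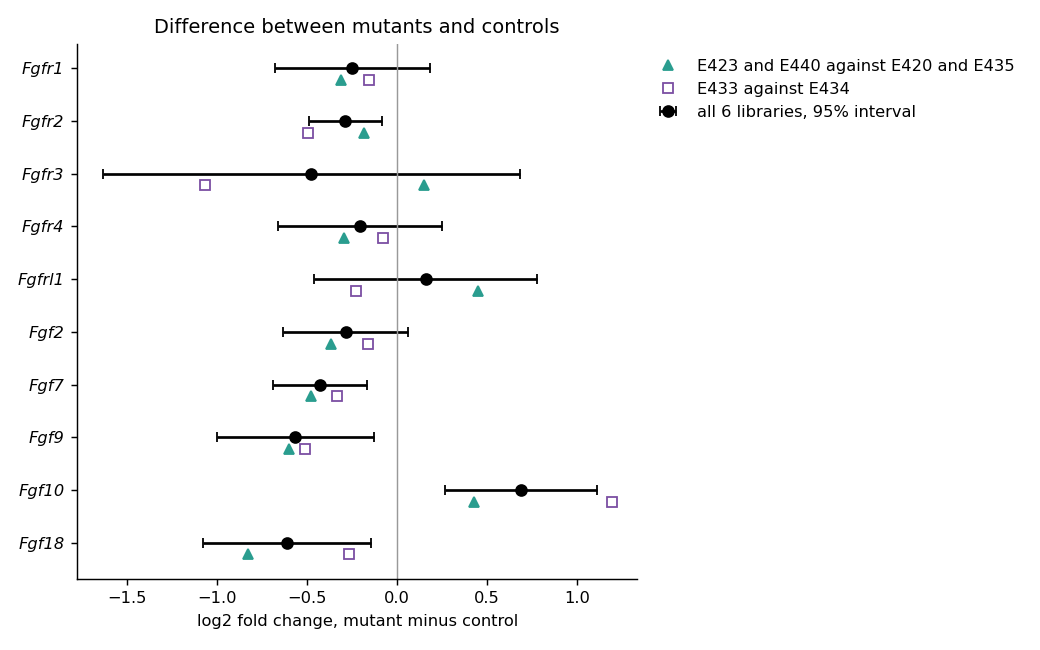
Log2 fold change of each member, mutant minus control, from edgeR over 6 libraries (black points with 95% intervals), with the differences of E423 and E440 against E420 and E435 (green triangles) and of E433 against E434 (open squares) below. The triangle and square lie on opposite sides of 0 for Fgfr3 (0.15 and -1.06) and Fgfrl1 (0.45 and -0.22) and on the same side for the other 8 members.

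The other genes of the pathway were read from 5 lists. In edgeR none of the 72 tested genes on these lists passed the limits, 7 were lower and 5 higher at an unadjusted p-value under 0.05 (4.7% and 5.9% of all genes), and in DESeq2 3 passed the limits (Klb, Fgf22 and Fgf4). Of the other FGF ligands, 11 of 13 had enough reads to be tested, with 2 lower (Fgf3 and Fgf4) and 1 higher (Fgf22) at an unadjusted p-value under 0.05. Fgf22, a ligand of the FGF7 subfamily, had 1.603, 0.287 and 1.59 CPM in controls and 22.8, 1.65 and 21.6 CPM in mutants, with a log2 fold change of 3.73 (SE 1.07) and an adjusted p-value of 0.384 in edgeR and 0.0388 in DESeq2. The libraries highest in Fgf22, E423 and E440, were also those with the most keratinocyte marker RNA. All 10 keratinocyte markers were detected, though Flg had no read in E434, and the part of these markers in the Fgf22 result was not tested. Fgf3, chosen after its values were seen, had 8, 2 and 10 reads in controls and no read in any mutant. Against a floor of 3 reads per mutant library this is at least 2.19-fold lower.

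Of the 4 intracellular FGF homologous factors, which share the FGF fold but are not secreted, Fgf12 had 3.61, 3.77 and 3.85 CPM in controls and 2.33, 2.60 and 2.04 CPM in mutants. It was the 1 gene of the list at an unadjusted p-value under 0.05, lower by a log2 fold change of -0.69 (SE 0.15), with an adjusted p-value of 0.292 in edgeR and 0.0320 in DESeq2. Fgf11 was also apart, at 16.3 to 18.95 CPM in controls and 15.1 to 15.3 CPM in mutants.

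Coreceptors and ligand-binding proteins, which hold FGFs at the cell surface or carry them, had 3 of 17 genes lower and 3 higher at an unadjusted p-value under 0.05, against 4.7% and 5.9% of all genes. Sdc2, a heparan sulfate proteoglycan of the cell surface, had 93.7, 107 and 87.5 CPM in controls and 58.3, 61.0 and 55.0 CPM in mutants. Its mutant libraries lay close together and well below the controls, E433 included. The log2 fold change of Sdc2 was -0.72 (SE 0.095), with an adjusted p-value of 0.145 in edgeR and 2.0e-06 in DESeq2. Sdc3, of the same family, had 147, 182 and 135 CPM in controls and 87.3, 126 and 80.5 CPM in mutants (edgeR adjusted p-value 0.392).

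Klb encodes beta-Klotho, the coreceptor through which FGF21 acts on fat and liver cells. It had 5, 7 and 9 reads in controls and 235, 38 and 217 reads in mutants, or 0.127, 0.154 and 0.186 CPM against 5.65, 0.882 and 4.70 CPM. The log2 fold change was 4.55 (SE 0.76), with an adjusted p-value of 0.183 in edgeR and 4.5e-09 in DESeq2. The 6 adipocyte markers were also lowest in E433 among the mutants, at 363 CPM against 817 and 832 CPM in E423 and E440, and their part in the Klb result was not tested. Fgfbp3, a carrier of secreted FGFs, had 3.79 to 5.03 CPM in controls and 5.48 to 7.22 CPM in mutants.

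The 22 intracellular transducers gave no gene with an unadjusted p-value under 0.05 in either direction, and their median log2 fold change was -0.0040. Ptpn11, a phosphatase that carries receptor signals to the MAPK cascade, was among those whose groups lay apart, with 216, 225 and 208 CPM in controls and 226, 231 and 229 CPM in mutants (log2 fold change 0.08, SE 0.071, edgeR adjusted p-value 0.723).

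Among 18 tested feedback inhibitors and response genes, which are induced by MAPK signalling or limit it, 1 was lower and 1 higher at an unadjusted p-value under 0.05 (10.6% of all genes in either direction), and the groups lay apart in 5 (15% of all genes). The median log2 fold change was -0.11, and the range was -0.43 to 0.60. Spred3 had 3.90 to 5.04 CPM in controls and 2.89 to 3.62 CPM in mutants, Spred2 38.0 to 40.3 CPM and 33.9 to 37.1 CPM, and Etv1, an ETS factor downstream of FGF signals, 12.3 to 15.6 CPM and 10.4 to 12.2 CPM. Ier3 lay the other way, at 7.10 to 8.91 CPM in controls and 9.23 to 13.7 CPM in mutants. Their edgeR adjusted p-values ran from 0.447 to 0.521.

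**Figure D5:**
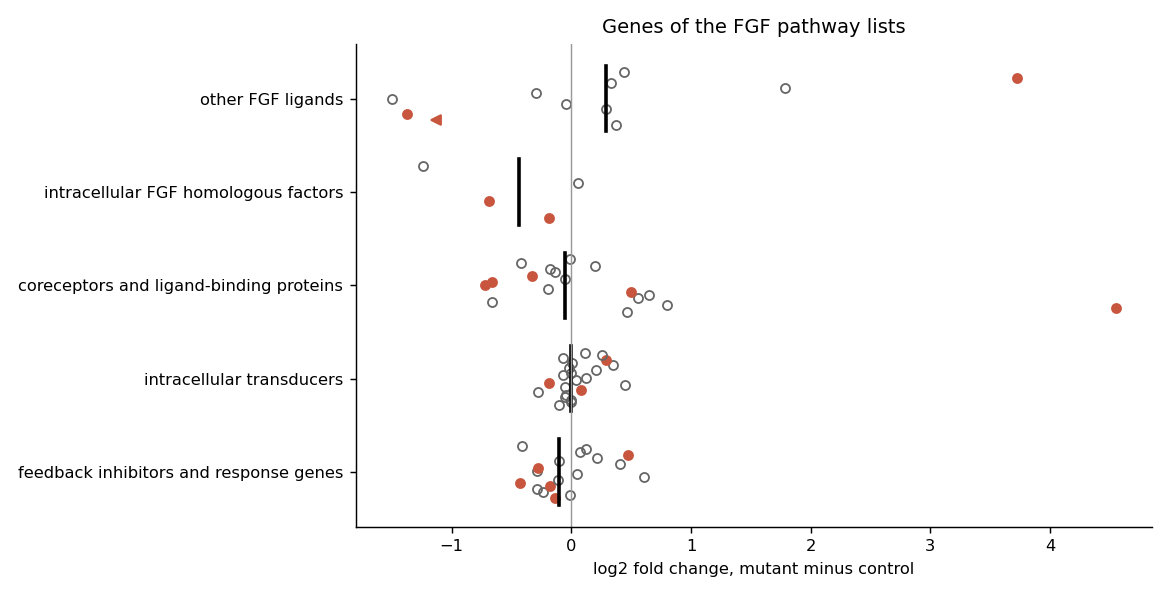
Log2 fold change (horizontal axis, mutant minus control) of each tested gene in the 5 pathway lists, with filled symbols where the groups lay apart, bars for list medians and a triangle for Fgf3 at its bound. The transducers lay within -0.28 to 0.45, while the points furthest right are Klb at 4.55 and Fgf22 at 3.73.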

How the data were processed

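The authors sequenced stranded, poly(A)-selected rib cage libraries as paired ends, aligned the reads to GRCm38 with HISAT2 2.1.0 and deposited raw counts per gene from featureCounts 1.6.0. Only primary alignments were counted, each read of a pair on its own, without strand, on exons of GENCODE vM25, and reads overlapping several genes were not assigned. The authors also deposited expected counts and TPM per gene from STAR 2.7.6 and RSEM 1.2.31, used here as alternatives, with expected counts rounded. Their own DESeq2 comparisons (fold changes and p-values) and 12 columns of per-sample values in those tables were not used.

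TMM scaling and the quasi-likelihood test of edgeR 4.0.16 (R 4.3.3) were applied to the 26596 genes that summed to at least 10 counts, with Benjamini-Hochberg adjustment over all of them. DESeq2 1.42.0 was an alternative. Data were simulated at the depths of these libraries with 200 of 26596 genes changed 4-fold. Of these, edgeR found 195 with 26 further calls, and DESeq2 found 198 with 59 further calls. The simulation gave every gene the same dispersion and drew the changed genes from the better-counted ones. Libraries of a group differed only in depth and random counts, unlike E434 and E433, so the share found does not carry over to the real libraries. Log2 CPM used a prior count of 2. Symbols came from GENCODE M21, found for 55141 of 55487 IDs, and Spry3 was not matched. Coordinates of genes are those of the count table. Each library is 1 embryo, with 37853988 to 47794799 assigned reads. Intervals and bounds for single counts cover counting error only.

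The members and lists were chosen with earlier results of these data known. Genes named were the members, Foxc1 and Foxc2, up to 4 genes per pathway list whose groups did not overlap (largest fold, mean of at least 1 CPM), the 2 highest genes of marker lists, and the 3 genes closest in profile to 5 members. Some items that this rule names are not reported here.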

Additional observations from a re-analysis of the deposited data

How the results depend on the processing

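The sign of the log2 fold change was the same under all 15 alternatives for 9 of the 10 members, and no member passed both limits under any of them. Fgfr3 changed sign without control replicate 2 (E434, 0.33), without E434 and E433 (0.15) and with the chondrocyte covariate (0.17), and leaving out 1 library at a time moved it from -0.76 to 0.33. Leaving out 1 library gave -0.43 to -0.12 for Fgfr1, -0.33 to -0.22 for Fgfr2, -0.42 to -0.08 for Fgfr4, 0.0045 to 0.53 for Fgfrl1, -0.42 to -0.17 for Fgf2, -0.51 to -0.36 for Fgf7, -0.71 to -0.44 for Fgf9, 0.54 to 0.78 for Fgf10 and -0.85 to -0.50 for Fgf18.

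The adjusted p-value fell under 0.1 in DESeq2 for Fgf7 (log2 fold change -0.42), Fgf10 (0.70) and Fgf18 (-0.60). Without E434 and E433 it did so for Fgfr1 (-0.31), Fgfr2 (-0.18), Fgfr3 (0.15, with the sign reversed), Fgfr4 (-0.29), Fgfrl1 (0.45), Fgf2 (-0.36), Fgf7 (-0.48), Fgf9 (-0.60), Fgf10 (0.43) and Fgf18 (-0.83). The cause was not tested.

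Past both limits were 477 genes in DESeq2, 35 with robust shrinkage, 37 without a low-count filter, 10 with RSEM expected counts, 0 to 1087 when 1 library was left out (most without E433), 2066 without E434 and E433, 0 with the close libraries summed, 240 with the chondrocyte covariate and 0 at an adjusted p-value under 0.01. Of the coreceptors, 1 passed in DESeq2, 1 without E434 and E433, 1 with the covariate and 0 to 2 without 1 library. Of the other ligands, 2 passed in DESeq2, 4 without E434 and E433, 1 with the covariate and 0 to 2 without 1 library. Klb and Fgf22 were among these each time, except in fits without 1 library other than E433, in which none passed. TPM changed the rank by level of 6 members, and in TPM the groups of Fgf7 and Fgf9 overlapped through E433.

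No paired analysis was possible because the labels give no litter and the embryo numbers pair no control with a mutant, although the methods describe littermates. The smallest difference detectable at this depth was not tested.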
